A study of Mus musculus with 6 samples.

Results

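The genes described here encode the proteins of the cytosolic ribosome. They were taken from the deposited count table by gene symbol: protein-coding genes named Rpl or Rps followed by a number and, in some, a paralog suffix, together with Rplp0, Rplp1, Rplp2 and Rpsa. Named pseudogenes, the Rps6k kinases and Gm gene models were left out. The rule gave 83 of the 55401 genes of the table, 51 assigned by symbol to the large and 32 to the small subunit. The pattern alone matched 89 symbols, and the 6 that the annotation does not class as protein coding (Rps4l, Rpl6l, Rps3a2, Rps3a3, Rpl32l and Rps12l1) were not counted as members.

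The ribosome is built of a small subunit, which scans and decodes the messenger RNA, and a large subunit, which joins the amino acids. Most Rps proteins sit in the small and most Rpl proteins in the large subunit, in most cases as a single copy. The exception is the P stalk, formed by Rplp0 with Rplp1 and Rplp2, which recruits and activates the elongation factors. The genes are transcribed at high levels in nearly all cells, most from promoters whose transcripts start in a run of pyrimidines. A few have a paralog with restricted expression: Rpl3l in striated muscle and Rpl10l and Rpl39l in the male germ line. Basophils are rare granulocytes of the blood, with the high-affinity receptor for IgE on their surface.

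Bulk RNA-seq libraries were made from wild-type mice in a model of atopic dermatitis, in which the vitamin D analogue MC903 in ethanol is applied to the ear skin and controls receive ethanol alone. Cells were sorted as live CD45+Lin-CD49b+ cells positive for FcεRIα or IgE. The protocol names Smart-seq2, a full-length cDNA method for small inputs, whereas the sample descriptions name 10x Genomics; the table has 1 column per library and was read as Smart-seq2. The 6 libraries carry the names A1 to A3 (set A) and B1 to B3 (set B). No label gives the treatment of either set, and the comparison is therefore of set B with set A. The sample labels give blood as the tissue, whereas the design text gives ear skin. No genotype or age beyond wild type is stated, and the labels do not tie the 3 libraries of a set to separate mice, so a p-value reflects the spread among libraries, which may be technical.

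The libraries held 46137963 to 63956911 counts, so 3 counts, taken as the limit that a count of 0 allows, were worth 0.0469 to 0.0650 CPM (counts per library total, scaled to 1000000). These totals are far above the read yield that the protocol states, for a reason the sources do not give, so the limit holds only if the deposited counts are single reads. Smart-seq2 reads carry no molecular identifiers, and the limit covers counting error only. The basophil markers stood at a summed 39.7 to 386 CPM in set A and 1459 to 3209 CPM in set B. Fcer1a, which encodes part of the receptor used in the sort, had 4, 0 and 0 counts in the libraries labelled A1, A2 and A3 and 41.9 to 216 CPM in set B. Other lists also differed between the sets, with summed levels in set A against set B of 2400 to 9548 against 12431 to 23050 CPM for neutrophil, 33303 to 40614 against 23497 to 30849 CPM for monocyte, 481 to 1135 against 213 to 375 CPM for T cell, 270 to 630 against 109 to 179 CPM for erythroid and 859 to 1393 against 519 to 816 CPM for platelet genes. The monocyte sum was 96.7% Lyz2, and without it the sets overlapped, at 858 to 1288 CPM in set A and 841 to 1103 CPM in set B. Of its other genes Adgre1 (64.2 against 149 CPM) and Cd14 (29.9 against 100.0 CPM) had the higher mean in set B. Csf1r (685 against 519 CPM), Ly6c2 (267 against 124 CPM) and Ccr2 (72.3 against 58.6 CPM) had the higher mean in set A. The sums overlapped between the sets for B cell and NK cell genes, and the defining markers Cd4, Alas2, Krt5, Krt14 and Krt1 had no count in any library. These levels moved with the sets beside every result that follows. Their part in the results was not tested, and fewer cells of a type cannot be told apart from less RNA per cell.

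Promoter sequences from RefSeq on build GRCm38.p6 were matched for 63 members. The 30 bases from 20 before to 10 after an annotated start are shown for some highly expressed members and some paralogs. They are given because the pyrimidine-rich start is the known shared feature of the family. Capitals mark CTTTCC or, where that is missing, CTTCC on the sense strand. Members not shown went the other way. The windows of the highly expressed Rplp0 and Rps19 held neither motif. Among paralogs, that of Rpl39l, a gene without counts, held CTTTCC, and that of Rpl22l1 held CTTCC.
Rps27, chr3:90213639-90213668, minus strand: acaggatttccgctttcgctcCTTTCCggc
Rpl35, chr2:39005122-39005151, minus strand: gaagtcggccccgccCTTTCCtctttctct
Rpl13, chr8:123102330-123102359, plus strand: gtcaCTTCCctttcgcctgattttgattgg
Rpl41, chr10:128549159-128549188, minus strand: gacgacacacgggccggctcggaagtgacg
Rps27l, chr9:66946066-66946095, plus strand: cctctccactcctccccgccgcctctatcc
Rpl7l1, chr17:46782647-46782676, minus strand: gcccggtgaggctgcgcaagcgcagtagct
Rpl3l, chr17:24727806-24727835, plus strand: cagctgagtgttctagctctgtcatttgac

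CTTTCC lay within 50 bases of an annotated start in 19 of the 63 members (30.2%), against 5.43% of the 27025 genes of the promoter table. It was found in 16 of 39 large subunit members (41.0%) and 3 of 24 small subunit members (12.5%). CTTCC was found in the same stretch in 29 members (46.0%), against 22.2% of all genes, and here the small subunit had the higher share, 14 of 24 (58.3%) against 15 of 39 (38.5%). CCGGAAG, the core sequence bound by ETS family factors, was searched on both strands over the whole 300 bases and was found in 26 members (41.3%), against 9.93% of all genes. Its reverse complement contains CTTCC, so the counts for these motifs overlap. A match is a description of the letters only.

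Ribosomal protein genes took 2.54% ± 0.296 (SD, n = 3) of the counts in set A and 2.39% ± 0.291 (SD, n = 3) in set B. Of the 83 members, 80 had counts in all 6 libraries and 2 had none in any. The median member stood at 227 CPM as the mean over libraries, and the 5 highest members held 22.1% of the summed level. Small subunit genes had the higher median, 338 CPM against 188 CPM for the large subunit. Per kilobase of coding length the medians were 585 and 366 CPM. Coding length leaves out the untranslated parts of the transcript, so an effect of length may remain.

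Rpl13 was among the members with the highest CPM, at 1417, 1238 and 1592 CPM in A1, A2 and A3 and 964, 869 and 1261 CPM in B1, B2 and B3. The sets overlapped, since B3 lay above A2. Rpl35, near the exit of the peptide tunnel, was more even, at 730, 809 and 807 CPM in set A and 696, 753 and 1004 CPM in set B. Per kilobase of coding length Rpl41 came first in the large subunit, at 4775 CPM per kb, and Rpl35 (2149), Rpl13 (1924) and Rpl32 (1251) were also among the highest. Rpl41 encodes the shortest ribosomal protein, with a coding length of 78 bases within a transcript of 544 bases. Per kilobase of that transcript it ranked 5 among large subunit genes, at 685 CPM per kb, and Rpl13 ranked 1 at 1569 CPM per kb.

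In the small subunit Rps19, whose human counterpart is mutated in Diamond-Blackfan anaemia, had the highest CPM, at 778, 859 and 1135 CPM in set A and 917, 741 and 1030 CPM in set B. Per kilobase of coding length Rps27 came first, at 2907 CPM per kb, followed by Rps19 (2077), Rps29 (2044) and Rps14 (1657). Rps27 was one of the most even members, at 706, 737 and 853 CPM in set A and 760, 618 and 772 CPM in set B, with the sets overlapping. The highest of its 6 values was 1.38 times the lowest.

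The P-stalk genes were unequal at the RNA level. Rplp0, the stalk base, stood at 823, 829 and 1361 CPM in set A and 806, 650 and 1048 CPM in set B. Rplp1, with 185, 214 and 356 CPM in set A and 321, 223 and 430 CPM in set B, also overlapped between the sets. Rplp2 had a narrow range, 176, 184 and 165 CPM in set A against 143, 136 and 156 CPM in set B, and every set A library was above every set B library. Per kilobase of coding length the means were 964, 835 and 460 CPM per kb for Rplp0, Rplp1 and Rplp2. Rpsa, a small subunit protein also known as the laminin receptor, had 405, 577 and 458 CPM in set A and 415, 100.3 and 313 CPM in set B, with B2 far below the other libraries.

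**Figure D1:**
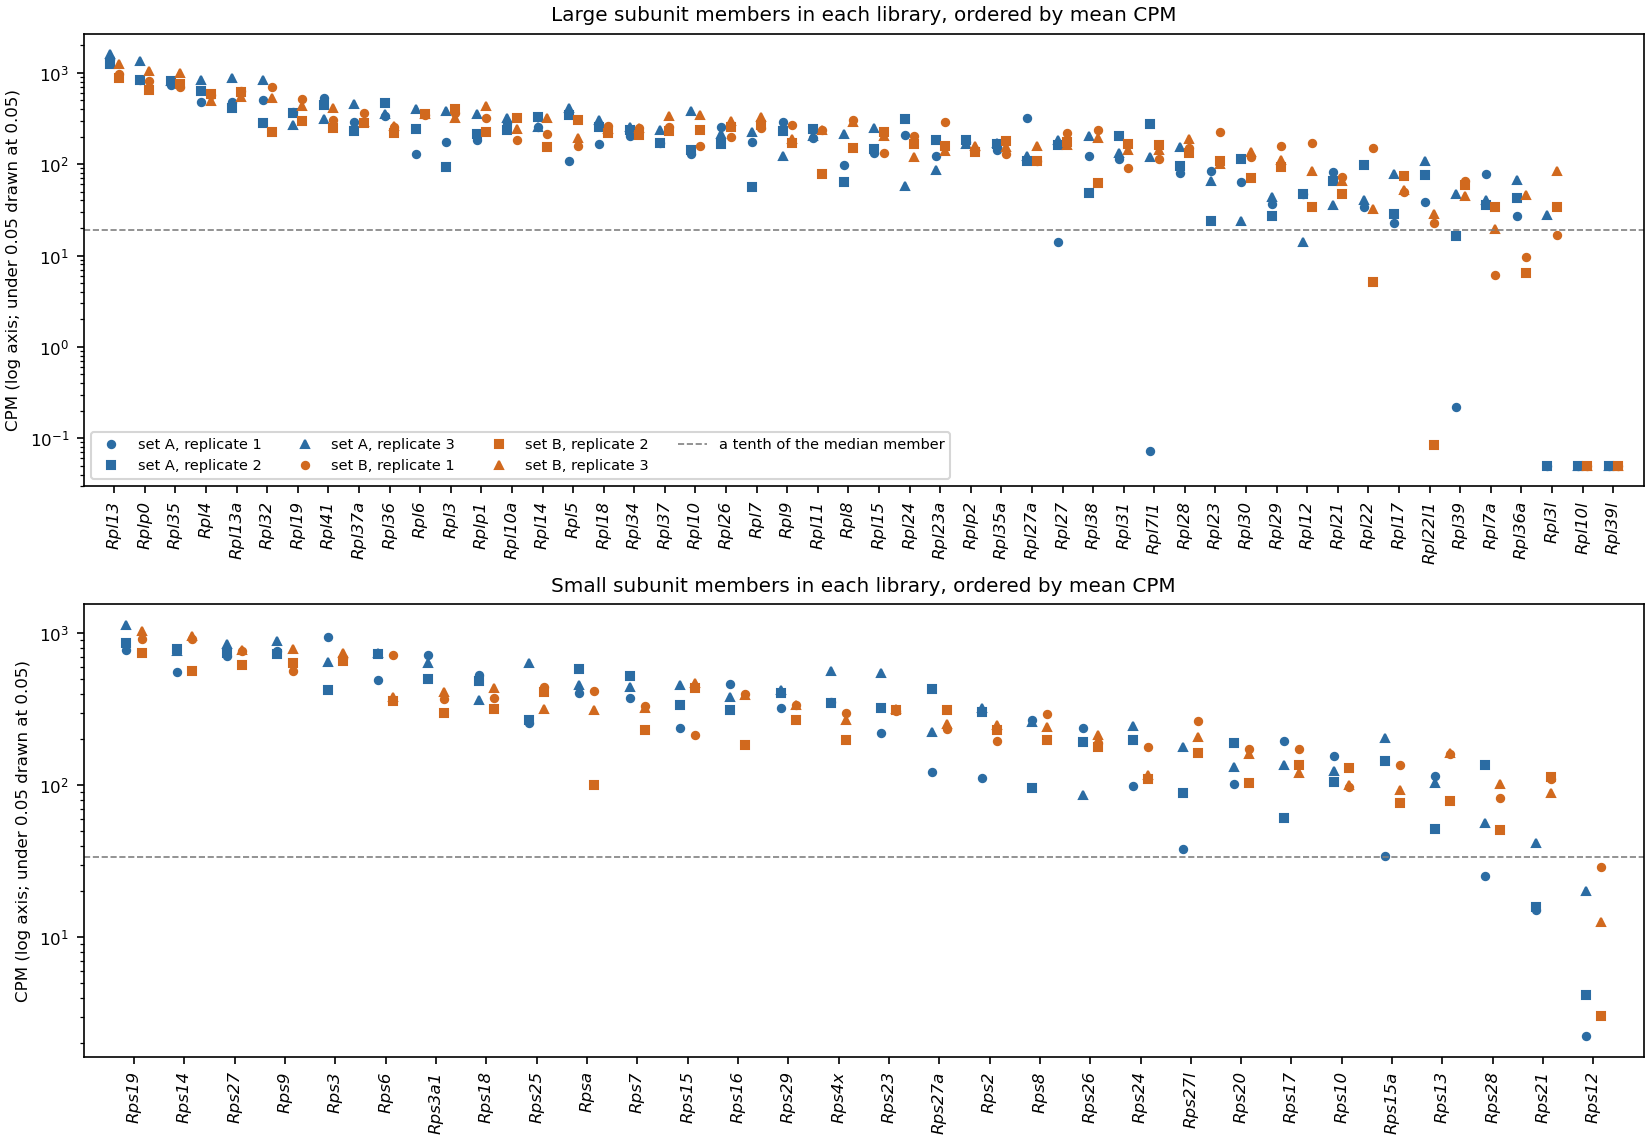
CPM of ribosomal protein genes (log axis) in the 6 libraries, ordered by mean CPM within the large (top) and small (bottom) subunit; colour gives the set, shape the replicate number, and the dashed line 10% of the median member of the subunit. At the median member with counts in all 6 libraries the highest library is 2.51 times the lowest. Rps12 lies below the line in the small subunit, and Rpl10l and Rpl39l, drawn at the bottom, have no counts.

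The members varied little between libraries compared with the rest of the genes tested. The SD over the mean of the 6 CPM values had a median of 0.323 over the 81 members tested and 0.919 over all 9196 genes tested, whose median level was also lower (30.1 against 231 CPM). Values under 1 CPM made up 1.03% of the members' and 28.7% of all tested genes' library values. The highest library was 2.51 times the lowest at the median, and 23 members stayed under a factor of 2. The smallest factor, 1.26, was that of Rpl34. Across the 83 members the ranks of CPM correlated between libraries of the same set with Spearman's rho 0.819 to 0.901 (median 0.842, 6 pairs of libraries) and between libraries of different sets with 0.785 to 0.921 (median 0.829, 9 pairs). These correlations are across genes of unequal length, which are not independent replicates.

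A mean level under 10% of the subunit's median was seen for 3 members. Rps12, a core small subunit protein, stood at 2.23, 4.14 and 20.03 CPM in set A and 29.1, 3.01 and 12.6 CPM in set B, with the sets overlapping and its lowest and highest values 13.04-fold apart. Its mean of 11.9 CPM compares with 64.2 CPM for Rps21, the next lowest small subunit gene. The germ line paralogs Rpl10l and Rpl39l had 0 counts in all 6 libraries, which allows up to 0.0650 CPM in the shallowest. Rpl3l, the muscle paralog, had a mean of 27.2 CPM and lay above the threshold.

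Another 5 members were not low on average but had a single library, or in Rpl3l a pair of libraries, under 10% of their own median. Rpl7l1 had 0.0726 CPM in A1 and 113 to 277 CPM in the other 5 libraries. Rpl27 had 13.9 CPM in A1 and 160 to 220 CPM elsewhere. Rpl39 had 0.218 CPM in A1 and 16.3 to 66.1 CPM elsewhere. Library A1, with 9242 genes detected, had the fewest of the 6, and held 3 of these lows besides one of the zeros of Rpl3l. Rpl22l1 had 0.0846 CPM in B2 and 22.8 to 109.5 CPM in the others. Whether such a low reflects capture in that library was not tested.

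Many ribosomal protein genes have processed copies in the genome. In the GENCODE M21 transcripts, a copy had to be at least 90% identical over an aligned stretch at least 80% as long as the member's coding sequence. The stretch could lie anywhere in the transcript, untranslated parts included. By this rule 78 members had a copy, in all 1007 copies, of which 988 are annotated as pseudogenes and 596 had a count in some library. Neither the counting program nor its treatment of reads that match several places is stated in the sources, and the split between a member and its copies is uncertain. The copies held 14.5% to 16.3% of the family's counts per library. At the median member with counts the share was 9.98%.

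In 5 members the copies held more counts than the gene itself. For Rps12 they held 76.6%, with 11.9 CPM on the gene and 38.9 CPM on its copies, of which Rps12-ps9 (18.0 CPM) and Rps12-ps3 (17.9 CPM) took most. Gene and copies together reached 50.7 CPM, still below Rps21. Rpl7a had 85.6% of its family's counts on copies, Rpl21 84.1%, Rpl17 75.8% and Rpl23a 51.4%. Rpl3l, Rpl8, Rps3 and Rpl39l were among the members without such a copy.

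**Figure D2:**
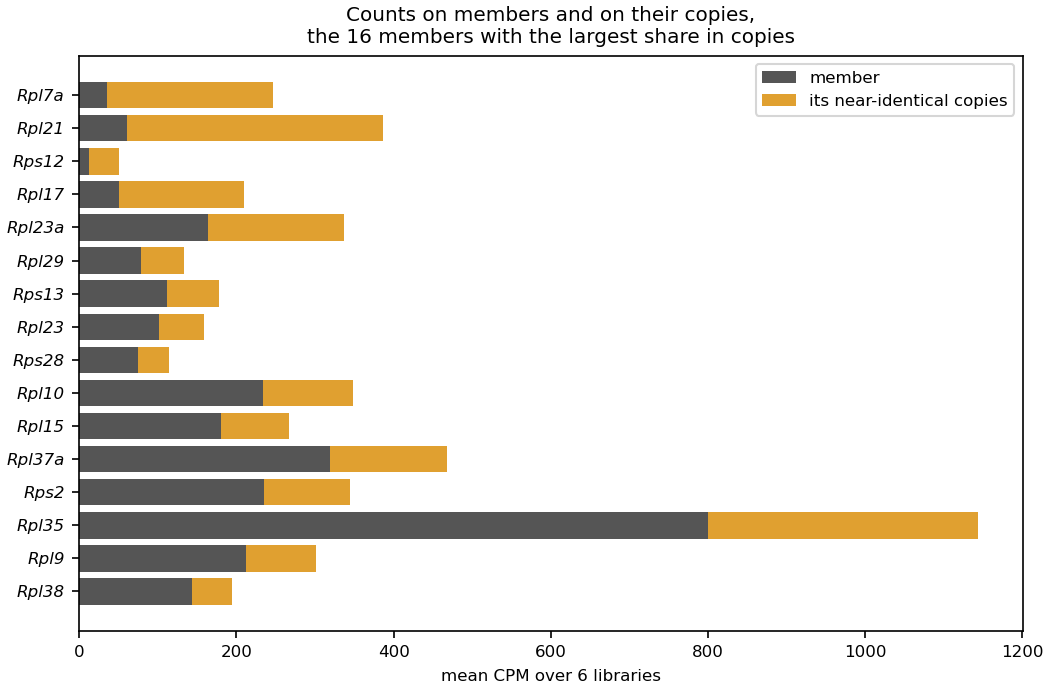
Mean CPM over the 6 libraries on each member (grey) and on its copies of at least 90% identity (orange), for the 16 members with the largest share on copies. Rpl7a, Rpl21, Rps12 and Rpl17 lie mostly on copies, while Rpl35 keeps most of its counts on the gene.

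The next comparison asked whether ribosomal protein genes differed between the sets. None of the 81 members tested passed the threshold of 0.05 in edgeR's quasi-likelihood test with Benjamini-Hochberg adjustment over all 9196 genes tested, where 2 genes (0.0217%) passed. At an unadjusted p under 0.05 no member was higher in set B, against 5.05% of all genes tested, and 5 were lower, against 1.32%. In either direction that is 6.17% of the members and 6.36% of all genes tested. The median log2 fold change of set B over set A was -0.08 over the members and -0.06 over all genes tested. The fitted value was below 0 in 50 of 81 members (61.7%) and in 52.0% of all genes tested. Without scaling between libraries other than the total, 41 members were fitted above and 40 below 0, and the median of the members was 0.00 and that of all genes 0.04. With DESeq2's size factors 26 were above and 55 below 0, and these medians were -0.19 and -0.16.

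By subunit, the median log2 fold change was -0.06 in the large subunit, with 22 members above and 27 below 0. In the small subunit it was -0.20, with 9 above and 23 below 0. The lower members at an unadjusted p under 0.05 were Rpl36 and Rpl13 of the large and Rps3a1, Rps4x and Rps7 of the small subunit.

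Rps3a1, a protein at the small subunit's platform, had the smallest p of any member. Its values were 718, 500.3 and 641 CPM in A1, A2 and A3 and 371, 298 and 408 CPM in B1, B2 and B3, with every set A library above every set B library. The fitted log2 fold change was -0.89 (SE 0.277), and the adjusted p from edgeR was 0.508. DESeq2 gave -1.0 with an adjusted p of 0.0130 and also called Rpl13 at -0.66 with 0.0356, which made 2 of 81 members against 6.47% of all genes. By limma-voom no member passed, against 2.89% of all genes.

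Rps4x, encoded on the X chromosome, stood at 355, 350 and 561 CPM in set A and 299, 199 and 269 CPM in set B, also without overlap. Its log2 fold change was -0.81 (SE 0.312). Rps7, named here after its value was seen, had 374, 526 and 443 CPM in set A and 332, 230 and 321 CPM in set B, with a log2 fold change of -0.70 (SE 0.283). In Rpl36, levels of 336, 461 and 355 CPM in set A stood against 252, 220 and 259 CPM in set B, a log2 fold change of -0.75 (SE 0.278). For Rpl13 the log2 fold change was -0.55 (SE 0.219), and B3 overlapped set A. For these 4 genes edgeR gave an adjusted p of 0.623 to 0.742.

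On the higher side the smallest p belonged to Rpl29, a large subunit protein that also binds heparin, and to Rps21. Rpl29 had 36.6, 27.1 and 44.2 CPM in set A and 158, 93.6 and 111 CPM in set B, with no overlap and a log2 fold change of 1.65 (SE 0.826). Rps21 had 15.1, 15.8 and 41.4 CPM in set A and 111, 113 and 89.5 CPM in set B, also without overlap, and a log2 fold change of 2.04 (SE 1.03). Counted on the genes alone, both lay far below the median member of their subunit. Copies held 41.0% of the counts of the Rpl29 family. With them Rpl29 stood at 54.7, 127 and 86.3 CPM in set A. The set B values were then 220, 147 and 162 CPM, still without overlap. Rps27l followed at 1.01 (SE 0.621) and Rpl8 at 0.93 (SE 0.579), and both overlapped between the sets. In Rpl8 the values were 98.0, 63.8 and 215 CPM in set A and 307, 152 and 292 CPM in set B. None of these 4 passed, and edgeR gave each an adjusted p of 1.00.

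Every set B library lay above every set A library in 4 members (4.94%), Rpl29, Rps21, Rpl23 and Rpl7, against 10.2% of all genes tested. The opposite held for 8 members (9.88%), among them Rps3a1, Rps4x, Rps7, Rpl36, Rpl22l1, Rpl7a and Rplp2, against 3.91%. Both directions together made 12 of 81 members (14.8%) and 14.1% of all genes tested, so the total was near the background. For Rpl7a, whose counts lie mostly on copies, the gene alone had 77.4, 35.9 and 40.7 CPM in set A and 6.15, 34.0 and 19.3 CPM in set B. Its copies added, the values were 360, 313 and 271 CPM against 137, 200.4 and 198 CPM, with a fitted log2 fold change of -0.93 (SE 0.368) in place of -1.51 (SE 1.46).

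**Figure D3:**
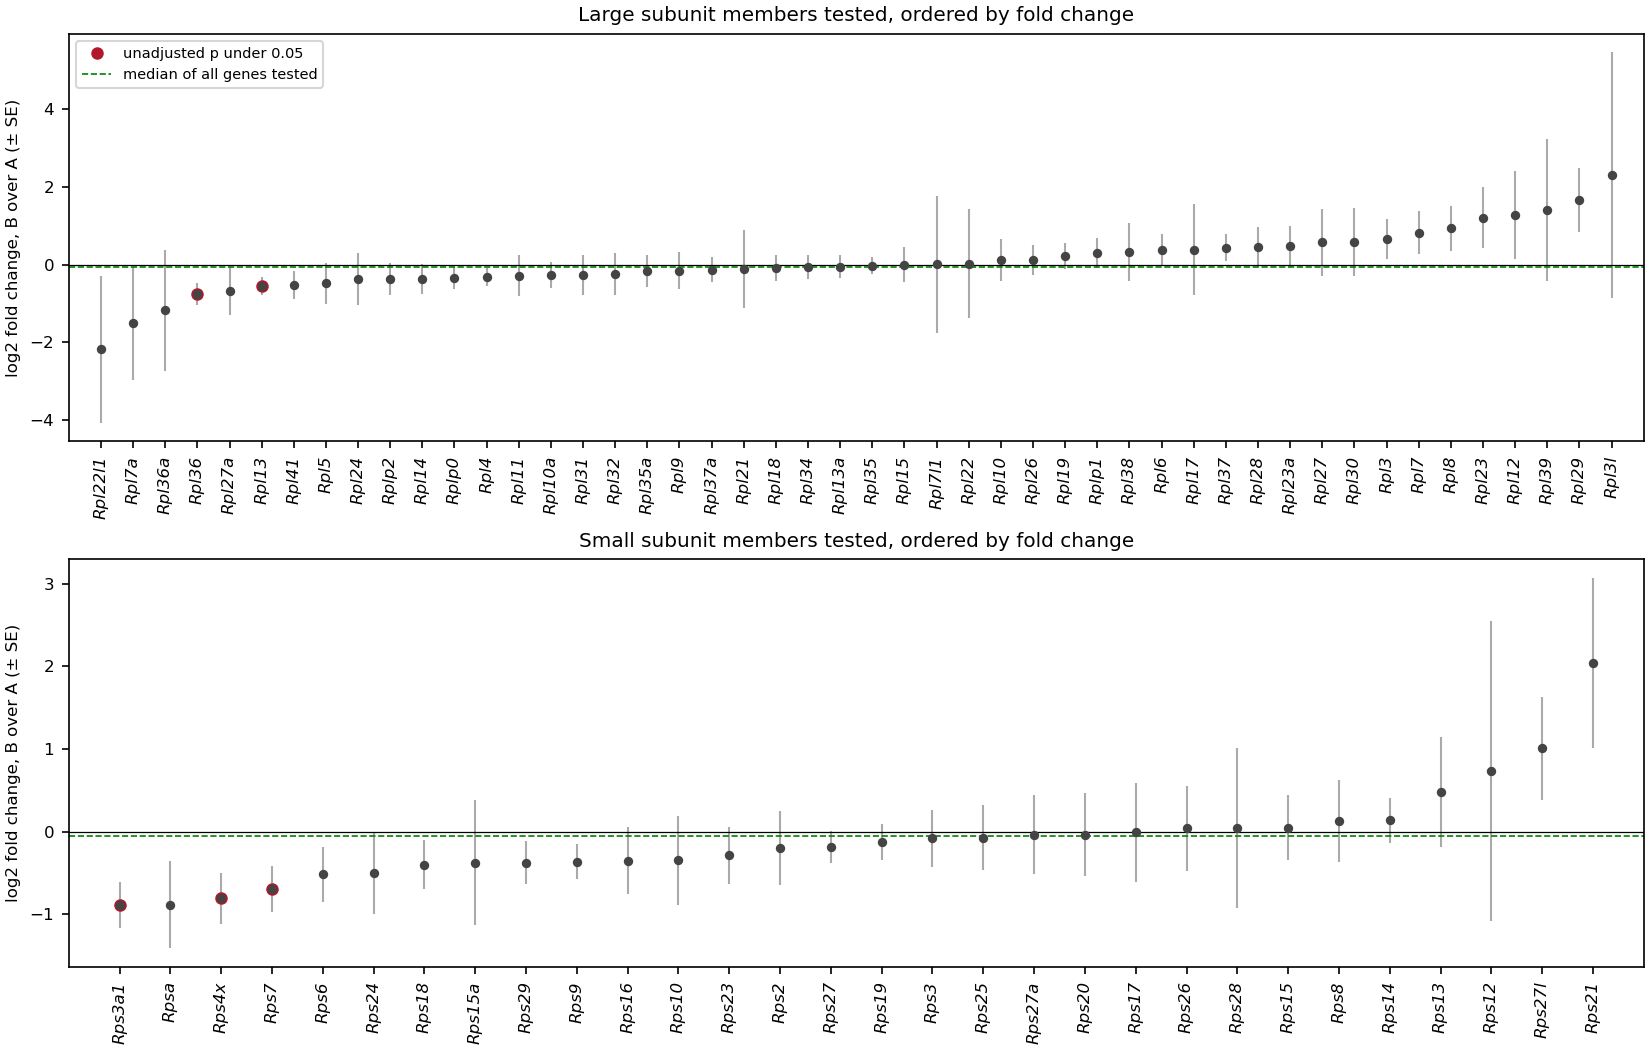
Fitted log2 fold change of set B over set A with its SE for large (top) and small (bottom) subunit members tested; red rings mark the 5 members with an unadjusted p under 0.05 and the dashed line the median of all genes tested. Most members lie near 0, Rpl3l lies farthest above it and has the widest error, and all 5 ringed members lie below 0.

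The summed level of each subunit overlapped between the sets. Large subunit genes summed to 12632, 13126 and 15832 CPM in A1, A2 and A3 and to 13804, 11716 and 14836 CPM in B1, B2 and B3, a mean of 13864 ± 1723 against 13452 ± 1590 (SD, n = 3 each). Small subunit genes summed to 10589, 11122 and 12949 CPM in set A and 10908, 8904 and 11411 CPM in set B, a mean of 11553 ± 1238 against 10408 ± 1326 (SD, n = 3 each). Both differences, -412 and -1146 CPM, were smaller than the SD of the set A libraries. This holds for CPM from library totals. With TMM-scaled totals, as in the edgeR fit, the differences were -1280.2 CPM for the large and -1850.4 CPM for the small subunit. Both were larger than the SD of set A (949.9 and 576). The SD of set B was 1957 and 1584, so the large subunit difference was smaller than the SD of set B. The sets still overlapped. The difference of the large subunit changed sign when A3 (573 CPM) or B2 (456 CPM) was left out.

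The ratio of large to small subunit counts, which does not depend on the scaling between libraries, did not overlap. It was 1.19, 1.18 and 1.22 in A1, A2 and A3 and 1.27, 1.32 and 1.30 in B1, B2 and B3, a mean of 1.20 ± 0.0218 against 1.29 ± 0.0258 (SD, n = 3 each). On the log2 scale set B lay 0.11 above set A, and 0.10 to 0.13 with each library left out in turn. Adding the copies to their members left the difference at 0.11. With the median member of each subunit in place of the sum it was 0.40.

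**Figure D4:**
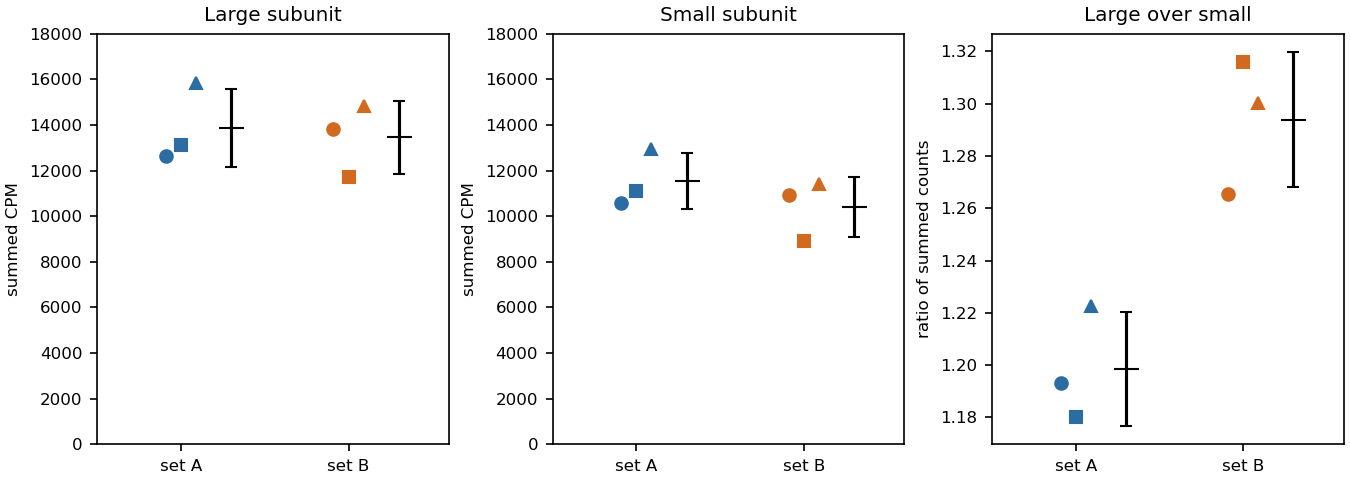
Summed CPM of large (left) and small (middle) subunit members and the ratio of their counts (right) in each library, with mean and SD per set (n = 3); the axis of the ratio does not start at 0. The sums overlap between the sets, and the ratio is 1.18 to 1.22 in set A and 1.27 to 1.32 in set B.

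Paralogs were compared with the gene they resemble as log2 ratios of counts within a library. Of 9 pairs, 5 had over 3 counts of both genes in every library and were tested with a 2-sided exact permutation test, whose smallest possible p with 3 against 3 libraries is 0.1. No pair could therefore pass 0.05.

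Rps27l, a target of p53 that can replace Rps27 in the ribosome, had 38.2, 88.9 and 178 CPM in set A and 265, 162 and 207 CPM in set B. Its share of the pair's counts was 5.12%, 10.8% and 17.2% in A1, A2 and A3 and 25.9%, 20.8% and 21.2% in B1, B2 and B3, higher in every set B library. The log2 ratio differed by 1.39 (exact permutation p = 0.1, adjusted over the 5 pairs 0.25). Rpl36al, an intronless copy of Rpl36a whose symbol falls outside the rule, held most of its pair's counts in every library. Its share was 82.2%, 85.7% and 58.7% in set A and 91.2%, 97.1% and 85.8% in set B, where A2 and B3 were almost equal, and the log2 ratio differed by 1.905 (exact permutation p = 0.1, adjusted 0.25).

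For Rpl22l1, which in T cell development acts apart from Rpl22, the share was 53.2%, 43.8% and 73.2% in set A and 13.3%, 1.62% and 46.5% in set B. The sets overlapped, and the log2 ratio differed by -3.37 (exact permutation p = 0.2, adjusted 0.333). Rpl22 itself ranged from 5.12 to 149 CPM. For Rpl7l1 over Rpl7, which took shares of 0.0417%, 83.1% and 35.1% in set A and 31.0%, 37.5% and 29.9% in set B, the log2 ratio differed by 2.23 (exact permutation p = 0.9, adjusted 0.9), and by -1.75 without A1. The pseudogene Rps3a2 had 0.389% to 1.603% of the counts it shares with Rps3a1 in the 6 libraries, and the log2 ratio differed by -0.20 (exact permutation p = 0.9, adjusted 0.9), or by 0.40 without B1.

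The other 4 pairs were not tested. Rpl3l had 0, 0 and 27.9 CPM in set A and 16.8, 34.4 and 83.9 CPM in set B, against 94.2 to 405 CPM of Rpl3. The pseudogene Rps4l had 80.3 CPM in A3 and 12.5 CPM in B3, and 10 counts or fewer in the other libraries, against 199 to 561 CPM of Rps4x. Rpl10 (129 to 384 CPM) and Rpl39 were counted without any count of Rpl10l or Rpl39l.

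**Figure D5:**
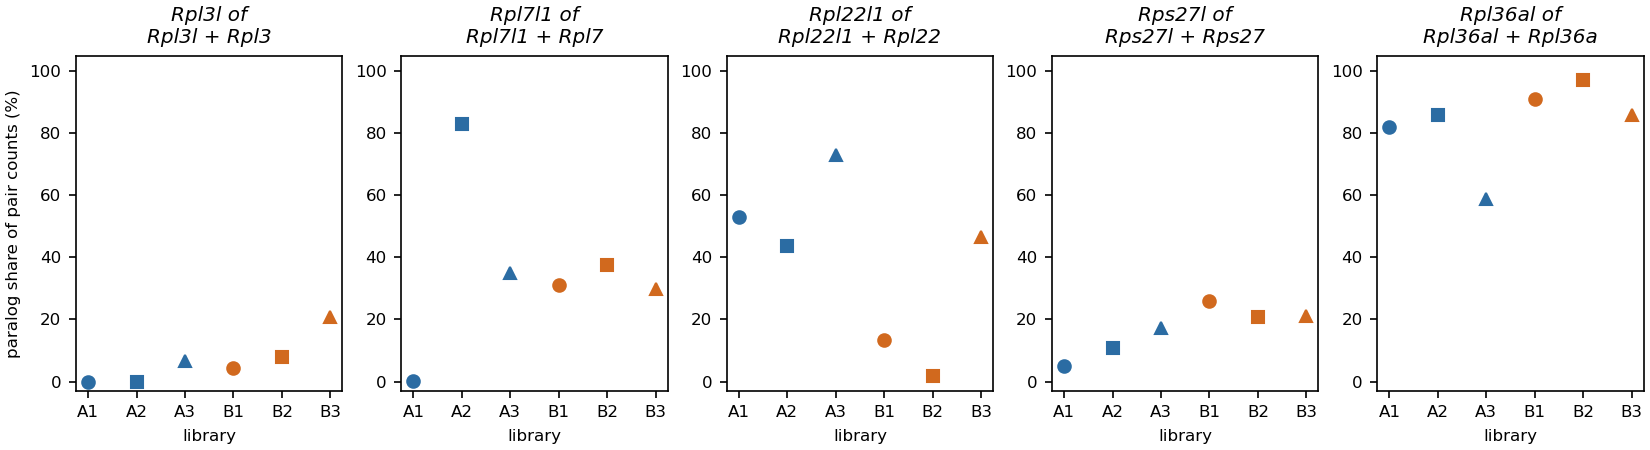
Share of the pair's counts taken by the paralog (percent) in each library, for the 5 pairs of which both genes are protein coding and counted; blue is set A and orange set B. The share of Rps27l is 5.12% to 17.2% in set A and 20.8% to 25.9% in set B, and that of Rpl7l1 is near 0 in A1 alone.

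Genes that work with the ribosome were read from the same fit. Among 43 translation factors tested edgeR called none, and 2 (4.65%) had an unadjusted p under 0.05, both lower in set B. Of all genes tested 6.36% had such a p in either direction and 1.32% were lower in set B. Eef1a1, which delivers aminoacyl-tRNA to the ribosome, stood at 1654, 1453 and 1445 CPM in set A and 756, 1152 and 877 CPM in set B, a log2 fold change of -0.82 (SE 0.215) that edgeR's quasi-likelihood test gave an adjusted p of 0.508. Eif3b, a subunit of the initiation factor that binds the small subunit, had 182 ± 66.0 CPM in set A and 59.3 ± 17.7 CPM in set B (SD, n = 3 each), with a log2 fold change of -1.72 (SE 0.618). Eif5a had the highest level of the list, at 1921 ± 142 CPM in set A and 1777 ± 329 CPM in set B (SD, n = 3 each). The list summed to 9946 to 11151 CPM in set A and 9026 to 9528 CPM in set B, without overlap, and its median log2 fold change was -0.22.

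Of 45 ribosome biogenesis genes 31 were tested and edgeR called none. The only gene of the list with an unadjusted p under 0.05 was Nop58, of the box C/D particles that methylate ribosomal RNA. That is 3.23% of the list's tested genes, against 6.36% of all genes tested. Nop58 had 0 to 0.260 CPM in set A and 6.70 to 27.5 CPM in set B. Of 78 mitochondrial ribosomal protein genes, all tested, edgeR called none. At an unadjusted p under 0.05, 2 genes (2.56%) were higher in set B, against 5.05% of all genes tested. Mrps25 had 0 to 0.227 CPM in set A and 49.6 to 106 CPM in set B. Mrpl47 had 0 to 0.130 CPM in set A and 6.47 to 77.6 CPM in set B. Nop58, Mrps25 and Mrpl47, near 0 in set A, passed the expression filter through set B, which favours this direction. In CPM from library totals the mitochondrial list summed to 5317 to 5693 in set A and 6336 to 7007 in set B, without overlap. The TMM factor was lowest in A1 (0.890) and highest in B2 (1.07), so TMM scaling brings the sums of these libraries closer together. The summed cytosolic genes overlapped between the sets. The median log2 fold changes were 0.17 for ribosome biogenesis and 0.15 for mitochondrial ribosomal protein genes. The mitochondrial median was 0.27 without scaling other than the total and 0.07 with DESeq2's size factors.

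The genes of 4 ribosomal proteins whose symbols the rule does not take, among them Fau, Rack1 and Rpl36al, were all fitted above 0 and none passed by edgeR. Fau, which encodes a fusion with the small subunit protein eS30, had 364 ± 178 CPM in set A and 496 ± 71.9 CPM in set B (SD, n = 3 each).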

How the data were processed

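The authors deposited raw counts per Ensembl gene, with 1 column for each of 6 libraries. The submitters' processing notes name cutadapt 1.9, HISAT2 2.2.1 and DESeq2 without saying what each was used for. Counting program, genome build, annotation and strand setting: not given in the sources used here. Ensembl identifiers were turned into symbols with a reference table, which matched 55141 of 55401. Gene type, coding length and copies (blastn 2.17.0) came from GENCODE M21, which may differ from the authors' annotation.

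CPM is the count over the library total, times 1000000. edgeR 4.0.16 (filterByExpr by set, TMM, robust quasi-likelihood fit, R 4.3.3) was run on all genes, with DESeq2 1.42.0 and limma-voom (limma 3.58.1) as alternatives. Single values were compared with 2-sided exact permutation tests. On counts simulated for 9196 genes edgeR called 0, 2, 12 and 19 of 50 genes changed 2-, 4-, 8- and 16-fold. There was 1 false call, and differences under 8-fold were rarely called. The changed genes were drawn from the highly counted genes of the whole table, so the power for the members themselves was not measured.

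Members and gene lists were chosen with earlier results of these data known. Named with values were the 5 highest of each subunit per kilobase, low outliers, paralog pairs, the 4 smallest p in each direction, members with a library under 10% of their median, the P stalk and Rpsa; members that did not overlap between sets, or held most counts on copies, were named after their values were seen. A few members and related genes enter every count and sum but are not reported here by name or drawn. Protein sequences are not shown.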

Additional observations from a re-analysis of the deposited data

How the results depend on the processing

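No ribosomal protein gene passed the threshold in edgeR fits with other scalings or filters, without the robust option, with counts divided by 4, with copies added (chosen after seeing the data), or with each library left out in turn (0 to 0). DESeq2 called 2 of the 81 members, 2 translation factors, 1 ribosome biogenesis gene and 3 mitochondrial ribosomal protein genes, and limma-voom called 1 mitochondrial ribosomal protein gene. The replicate numbers did not pair the libraries (correlations of same-numbered deviations 0.010, -0.024 and 0.007), and a replicate block called 0 members.

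Leaving out each library in turn moved the large subunit difference between -1104 and 573 CPM, reversed without A3 (573) and without B2 (456), and the small subunit difference between -1647 and -394 CPM. The log2 ratio of large to small ranged from 0.10 to 0.13, that of Rps27l to Rps27 from 0.87 to 1.85, Rpl36al to Rpl36a from 1.21 to 2.45, Rpl22l1 to Rpl22 from -4.74 to -1.88, Rpl7l1 to Rpl7 from -1.75 (without A1) to 5.02 and Rps3a2 to Rps3a1 from -0.63 to 0.40 (without B1). The cause of these reversals was not tested. Of 528 alternative values of 33 named genes, 27 had the other sign, none past the threshold in either fit. Within the alternatives, Rpl13 and Rps3a1 passed only by DESeq2. For genes near 0.0650 CPM or below, depth limits any comparison.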

Other observations

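Of the 6 pseudogenes whose symbols match the pattern, Rps12l1 had no counts in any library. Rpl6l had 404, 601 and 877 counts in set A and 838, 1042 and 1235 counts in set B. Rps3a3 had 1026, 223 and 579 counts in set A and 194, 292 and 222 counts in set B, and Rpl32l had 28 to 103 counts over the 6 libraries. Rps4l was the least even, with 3707 counts in A3, 802 in B3 and 0 to 10 in the other 4 libraries.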
